A study of Rattus norvegicus with 18 samples.

Results

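The transcripts described here are 10 genes read in rat kidney cortex: leptin (Lep) and its receptor (Lepr), adiponectin (Adipoq) and its receptors (Adipor1 and Adipor2), 4 transcripts typical of fat cells (Car3, Fabp4, Plin1 and Cfd) and the nuclear receptor Pparg. They were chosen by symbol, and all 10 are among the 18420 gene rows of the deposited table. The choice was made with earlier results of the same data known, among them the values of Lepr and the difference in Car3 between RYGB and disease. The p-values below therefore describe these genes within a test of the whole table and are no independent evidence for any of them.

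Zucker diabetic fatty (ZDF) rats carry fa, a mutant allele of Lepr. The series holds 18 RNA-seq libraries of kidney cortex in 3 groups of 6. The healthy control group was lean, non-diabetic ZDF fa/+, so it carries 1 copy of fa. The disease group was diabetic ZDF fa/fa, labelled as the disease control, and the RYGB group was ZDF fa/fa, also labelled diabetic, after Roux-en-Y gastric bypass, surgery in which a small stomach pouch is joined to a lower stretch of the gut. All 3 groups therefore share the ZDF background and at least 1 fa copy. Disease against healthy control differs in the second fa copy and in diabetes together, which cannot be told apart. The labels give no age, no sex and no batch, and do not say whether the disease group had a sham operation or whether 1 animal gave 1 library. The p-values thus set differences of group means against the spread of libraries, which may be partly technical and not that between animals.

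Leptin is a hormone released by fat cells that acts through the JAK2 and STAT proteins bound by its receptor. The fa allele changes the receptor protein, so the amount of Lepr transcript does not report on it. Adiponectin is a second hormone of fat cells, and its receptors AdipoR1 and AdipoR2 couple to AMP-activated protein kinase and to PPARα. In mature fat cells PPARγ, the product of Pparg, drives the genes for perilipin 1 (Plin1, the coat of lipid droplets), the fatty acid carrier FABP4, adipsin (Cfd, complement factor D) and adiponectin, and cytosolic carbonic anhydrase 3 (Car3) is abundant in fat and in skeletal muscle. In the kidney, FABP4 is also known in capillary endothelium and macrophages.

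Levels are normalised reads, that is, reads per gene divided by 1 size factor per library. They are compared within a gene and not between genes, since transcript lengths were not used. Differences are log2 fold changes of (value + 1) with their standard error (SE), and a call is an adjusted p below 0.05 (limma, Benjamini-Hochberg over all 13988 tested genes). Of the 10 genes, 7 passed the filter, which asks for 10 or more normalised reads in 6 or more libraries. Lep, Plin1 and Cfd did not, and only their values are given. In bulk tissue, fewer cells of a type and less RNA per cell cannot be told apart. The depth was between 8116638 and 42713246 gene reads a library.

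Between disease and healthy control, 1 of the 7 tested genes was called, Car3, which was higher in disease. Of all tested genes 1.61% were called, and 0.579% were called higher. Between RYGB and disease 2 of the 7 were called, Car3 and Adipoq, both lower after RYGB. Of all tested genes 3.95% were called, and 2.1% were called lower. Between RYGB and healthy control none of the 7 was called by limma, against 4.44% of all tested genes; 2 of the 7, Lepr and Car3, had an unadjusted p below 0.05, edgeR called 0 and DESeq2 called 1. The median log2 fold changes of the 7 genes were -0.10, -0.15 and -0.11 in these 3 comparisons, beside 0.0016, -0.00087 and -0.013 over all tested genes. The first 2 comparisons share the disease libraries and are not independent of each other. The genes' choice used these contrasts, so nothing is read from the counts.

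**Figure D1:**
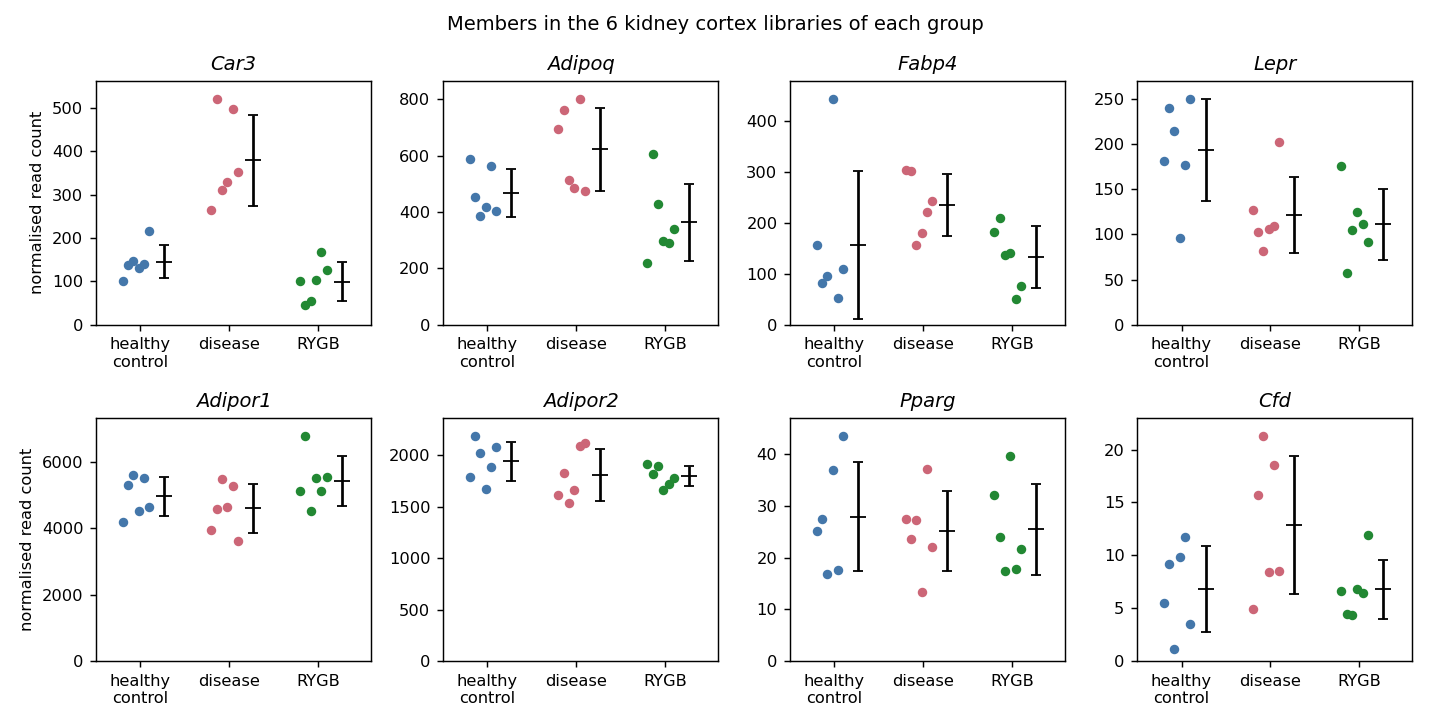
Normalised reads per library (linear axes from 0) of 8 of the 10 genes in healthy control, disease and RYGB kidney cortex, with 6 points per group and a bar for the mean ± SD. The Car3 points of disease lie above all points of both other groups, and 1 healthy control library stands far above the rest for Fabp4.

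The leptin transcript was close to absent from the reads. Lep had 11 reads in all 18 libraries together, 3 in healthy control, 7 in disease and 1 in RYGB. A read was seen in 8 libraries, and no library held more than 4. The highest value was 2.45 normalised reads, in healthy control replicate 4, where it is a single read. No difference between groups was detectable at this depth.

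Adiponectin was read in every library, with 170 to 966 reads. Adipoq stood at 385.7 (lowest), 434.3 (median) and 586.1 (highest) normalised reads in healthy control. The disease libraries ran from 475.2 through a median of 604.7 to 800.1, and the RYGB libraries from 219.4 through 317.8 to 605.0. Of the 6 RYGB libraries 5 lay below every disease library, and RYGB replicate 2, at 605.0, lay among them. The log2 fold change of RYGB against disease was -0.82 ± 0.20 (SE; 95% interval -1.25 to -0.39, adjusted p = 0.0289 in limma). The log2 fold change stayed between -0.98 and -0.69 when any 1 library was left out, but the call was not kept throughout. It was lost without disease replicate 1 (adjusted p = 0.0713) or 2 (0.0737), without RYGB replicate 1 (0.0755), 4 (0.0686), 5 (0.0664) or 6 (0.055), and, at an unchanged fold change, when the 12 disease and RYGB libraries were fitted alone (0.0596), all in limma. Without RYGB replicate 2 the RYGB mean was 314.1 ± 76.3 (SD, n = 5) in place of 362.6 ± 137 (SD, n = 6), and the difference was -0.98 on the log2 scale (limma adjusted p = 0.00586). Disease lay above healthy control by 0.39 ± 0.20 (SE; interval -0.031 to 0.82, limma adjusted p = 0.495), with 3 disease libraries above all healthy controls. RYGB against healthy control gave -0.42 ± 0.20 (SE; limma adjusted p = 0.191).

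Perilipin 1, perilipin 4 and resistin, which mark mature fat cells, were at or near 0. So was Pnpla2 of the white fat cell list, with means of 0.82, 1.06 and 1.13 normalised reads in healthy control, disease and RYGB. The cause of such low rows was not tested. Other genes of the list were well read: the lipid droplet protein gene Cidec had means of 271.5, 132.9 and 414.2 normalised reads in these groups. Hormone-sensitive lipase (Lipe) had 326.5, 389.9 and 427.1. Plin1 had 4 reads in the series, all in RYGB: 2 in replicate 2 and 1 each in replicates 4 and 5. It had 0 reads in the 12 healthy control and disease libraries, which allows at most 0.0124 CPM of gene reads (3 reads, counting error only). Resistin (Retn), another hormone of rodent fat cells, had 11 reads, and perilipin 4 (Plin4) had 20. Adipoq had 8714 reads over the same libraries.

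**Figure D2:**
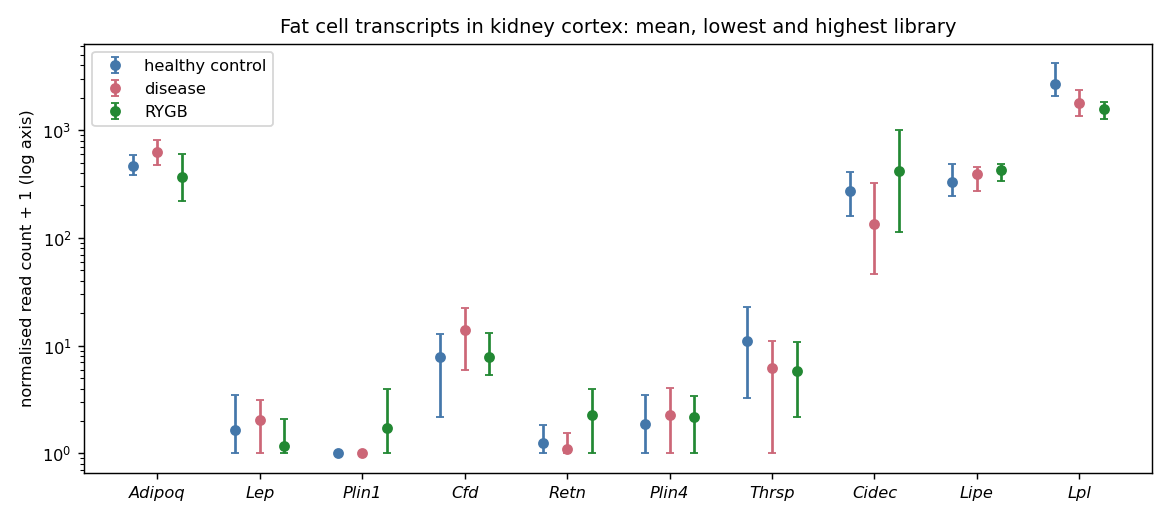
Normalised reads + 1 on a log axis for Adipoq, Lep, Plin1, Cfd and 6 further fat cell transcripts in each group; points are group means and lines run from the lowest to the highest library. Adipoq has group means between 362.6 and 621.9 while Lep, Plin1, Retn and Plin4 lie near 1, which is a value of 0.

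The list of other white fat cell transcripts held 25 symbols, of which 19 were in the table and 14 were tested. Between disease and healthy control 0 of the 14 were called higher and 1 lower, Mrap, the partner protein of the ACTH receptor, at -1.58 ± 0.32 (SE; limma adjusted p = 0.0128). Mrap stood at 143.6 ± 51.9 normalised reads in healthy control, 48.8 ± 22.9 in disease and 106.6 ± 48.0 in RYGB (SD, n = 6). Of the 14, 7 had an unadjusted p below 0.05 between disease and healthy control, against 1550 of all 13988 tested genes. In that comparison limma called 1.61% of all tested genes, and edgeR called 1 of the 14 and DESeq2 2. Between RYGB and disease limma called 0 of the 14, while 6 had an unadjusted p below 0.05, edgeR called 1 and DESeq2 called 4. The median log2 fold change of the 14 was 0.29, beside -0.00087 over all tested genes. Retn, Plin4, Thrsp, Nnat and Pnpla2 fell below the filter and are not part of this median. The part of fat cells in the Adipoq difference was not tested. Between RYGB and healthy control limma called 2 of the 14 higher and 1 lower, where 4.44% of all tested genes were called. An unadjusted p below 0.05 was seen for 6 of the 14, against 3666 of all 13988, and edgeR and DESeq2 called 3 each. Cebpa, a transcription factor of fat cells and liver, was higher by 0.65 (limma adjusted p = 0.0209). The triglyceride synthesis enzyme Dgat2 was higher by 0.60 (limma adjusted p = 0.0357) and lipoprotein lipase, Lpl, was lower at -0.74 (0.0188). The Lpl call was lost without RYGB replicate 1 or 6 and the Cebpa call without healthy control replicate 1 or RYGB replicate 1 or 6, and Dgat2 was not called in 7 of 28 alternatives, each of which left out 1 library (adjusted p 0.0594 to 0.0941). Of the 4 tested brown fat cell genes limma called 0 in each comparison, 1 had an unadjusted p below 0.05 between disease and healthy control and none in the other comparisons, and edgeR and DESeq2 called 0.

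The region before the start of the gene is shown for adiponectin, which was read in every library, and for leptin and perilipin 1, which were almost unread. RefSeq promoter windows were matched by symbol for 8 of the 10 genes. The build is GRCr8, which is not the build of the deposited table (Rnor 5.0). Each stretch is the 250 bases before the annotated start, 5′ to 3′ on the gene's strand. Capitals mark a match to CCAAT on either strand or to TTGCGCAA, a palindrome bound by C/EBP proteins. The windows are chr11:91240170-91240419 on the minus strand for Adipoq, chr4:58626288-58626537 on the plus strand for Lep and chr1:143086149-143086398 on the minus strand for Plin1.
Adipoq: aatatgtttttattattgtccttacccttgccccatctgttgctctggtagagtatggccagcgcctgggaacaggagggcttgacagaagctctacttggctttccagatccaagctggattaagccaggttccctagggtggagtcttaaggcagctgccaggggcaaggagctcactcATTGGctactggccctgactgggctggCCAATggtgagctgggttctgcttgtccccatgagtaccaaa
Lep: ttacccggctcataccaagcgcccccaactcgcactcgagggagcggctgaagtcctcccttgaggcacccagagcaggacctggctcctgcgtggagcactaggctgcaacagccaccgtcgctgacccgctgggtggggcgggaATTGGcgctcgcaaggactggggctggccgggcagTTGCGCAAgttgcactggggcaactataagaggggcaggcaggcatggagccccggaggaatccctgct
Plin1: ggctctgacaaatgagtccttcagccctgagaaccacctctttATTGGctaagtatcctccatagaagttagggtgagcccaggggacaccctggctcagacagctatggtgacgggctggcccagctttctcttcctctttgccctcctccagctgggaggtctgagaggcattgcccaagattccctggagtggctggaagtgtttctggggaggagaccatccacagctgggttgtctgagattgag
The Adipoq window held 2 CCAAT letters, 69 and 42 bases before the start, 1 on each strand. The Lep window held TTGCGCAA 69 bases and CCAAT 104 bases before the start, and the Plin1 window held CCAAT 207 bases before it. The other letters searched on both strands were AGGTCA, a nuclear receptor half-site, and TATAAA, and neither is in these 3 windows. Of 33469 windows of this length, 34.0% held CCAAT, 0.140% TTGCGCAA, 14.1% AGGTCA and 12.9% TATAAA. A match describes letters only and says nothing of binding in these kidneys.

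Of the receptors, the leptin receptor transcript was lower in both fa/fa groups in the group means, without a call. Lepr stood at 95.67 (lowest), 198.1 (median) and 250.1 (highest) normalised reads in healthy control. In disease it ran from 81.45 through 107.8 to 202.0, and in RYGB from 57.04 through 108.1 to 176.4. The groups overlapped through healthy control replicate 4 at the low end and disease replicate 6 at the high end. The log2 fold change was -0.66 ± 0.26 (SE) for disease (limma adjusted p = 0.318) and -0.81 ± 0.26 for RYGB (0.0749), each against healthy control. The second became a call without healthy control replicate 4 (limma adjusted p = 0.0148) or without disease replicate 6 (0.0491), and with DESeq2 on the recovered reads (0.0248). RYGB and disease differed by -0.15 ± 0.26 (SE; 95% interval -0.69 to 0.40), which turned to 0.029 at most when 1 library was left out. Leprot, whose product limits leptin receptor at the cell surface, overlaps Lepr in the GRCr8 annotation. Its mean levels were 1150.3 ± 104 in healthy control, 1139 ± 131 in disease and 1129 ± 143 in RYGB (normalised reads, SD, n = 6).

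Levels of the adiponectin receptor transcripts overlapped between all groups. Adipor1 stood at 4187 (lowest), 4978 (median) and 5617 (highest) normalised reads in healthy control. The disease libraries ran from 3627 through 4618 to 5496 and the RYGB libraries from 4531 through 5321 to 6787, so the groups overlapped. RYGB against disease was 0.25 ± 0.12 on the log2 scale (SE; 95% interval -0.0033 to 0.49, limma adjusted p = 0.246). Adipor2 had means of 1942 ± 193, 1812 ± 250 and 1801 ± 99.5 normalised reads in healthy control, disease and RYGB (SD, n = 6), with overlapping libraries. Its RYGB against disease difference was 0.00013 ± 0.096 (SE), with an interval of -0.20 to 0.20, and its sign turned with the scaling. Adipor2 overlaps Cacna2d4 and 2 pseudogenes in the GRCr8 annotation. The ratio of Adipor1 to Adipor2 normalised reads was 2.56 ± 0.27 in healthy control, 2.59 ± 0.60 in disease and 3.03 ± 0.48 in RYGB (SD, n = 6), and these ranges overlapped.

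**Figure D3:**
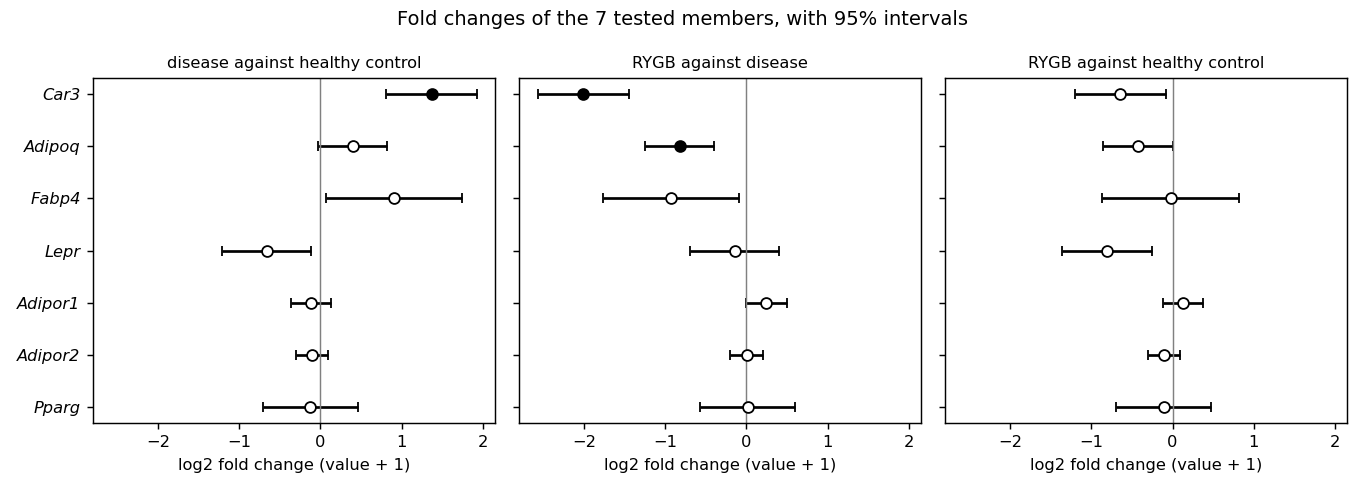
Log2 fold changes with 95% intervals of the 7 tested genes in the 3 comparisons; filled points have an adjusted p below 0.05 in limma. Filled points are Car3 in disease against healthy control and Car3 and Adipoq in RYGB against disease, and the intervals of Adipor1, Adipor2 and Pparg include 0 in all 3.

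Genes that act downstream of the receptors were taken from lists. Of 17 tested genes of leptin signalling, limma called 0 between disease and healthy control (3 at an unadjusted p below 0.05, edgeR and DESeq2 0) and 2 higher between RYGB and disease, where 3.95% of all tested genes were called. These were Stat5a and Stat5b, transcription factors that JAK2 activates. Stat5a stood at 168.1 ± 54.5 normalised reads in disease, 317.7 ± 85.2 in RYGB and 242.9 ± 41.7 in healthy control (SD, n = 6). Its log2 fold change of RYGB against disease was 0.95 ± 0.24 (SE; limma adjusted p = 0.0281). The Stat5a call was lost without RYGB replicate 1, 2, 4 or 5 and when the 2 groups were fitted alone. Stat5b was higher by 0.39 ± 0.11 (SE; limma adjusted p = 0.0499) and was not called in 19 of 28 alternatives. RYGB against healthy control had 0 leptin signalling calls in limma and edgeR, 3 at an unadjusted p below 0.05 and 2 in DESeq2. Of 16 tested genes of adiponectin signalling and of the 8 tested members of the PAQR family, to which the adiponectin receptors belong, limma and edgeR called 0 in each of the 3 comparisons. DESeq2 called 1 adiponectin signalling gene in RYGB against healthy control and 0 otherwise, and between 0 and 3 genes per list and comparison had an unadjusted p below 0.05. T-cadherin (Cdh13), an adiponectin-binding surface protein, was read at 16.6 ± 2.81, 16.97 ± 2.75 and 22.7 ± 10.2 normalised reads in healthy control, disease and RYGB (SD, n = 6).

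Among the fat cell proteins, Car3 was the one whose disease libraries stood wholly apart. It stood at 100.8 (lowest), 139.3 (median) and 217.2 (highest) normalised reads in healthy control. The disease libraries ran from 264.1 through 340.1 to 520.3, and the RYGB libraries from 46.54 through 101.8 to 166.6. Every disease library lay above every library of the other groups, while 2 RYGB libraries lay below all healthy controls. Disease exceeded healthy control by 1.37 ± 0.27 on the log2 scale (SE; 95% interval 0.81 to 1.93, limma adjusted p = 0.00936), which is a 2.58-fold level. RYGB against disease gave -2.01 ± 0.27 (SE; interval -2.57 to -1.45, limma adjusted p = 0.000425). RYGB lay below healthy control by -0.64 ± 0.27 (SE; limma adjusted p = 0.142). All libraries of disease lay above all healthy controls for 0.458% of tested genes, and all libraries of RYGB lay below all disease libraries for 1.47%. The first 2 calls of Car3 held in each of the 29 and 28 alternatives run. None of the 10 other tested carbonic anhydrases was called by limma or edgeR in any of the 3 comparisons, although 1, 3 and 1 had an unadjusted p below 0.05 and DESeq2 called 1 between RYGB and disease. Car2, the main cytosolic form of kidney, had means of 11593 ± 839, 12144 ± 1644 and 10367 ± 1044 normalised reads in healthy control, disease and RYGB (SD, n = 6). Skeletal muscle is another source of Car3 transcript, and its part in the Car3 difference was not tested. The sum of 7 muscle markers ranged from 39.5 to 125 normalised reads in healthy control, 35.5 to 77.2 in disease and 39.3 to 57.9 in RYGB. Of the 7, 4, 4 and 5 had means below 10 in these groups, and 3 were tested. None of the 3 tested was called by limma, edgeR or DESeq2, and 1 had an unadjusted p below 0.05, between RYGB and disease.

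Markers of other cells differed between the same groups. Of 12 tested macrophage markers, limma called 4 higher in disease than in healthy control (Lyz2, Gpnmb, Trem2 and Clec10a) and none lower, and 10 of the 12 fold changes were positive. Between RYGB and disease 4 were called lower (Mrc1, Gpnmb, Trem2 and Clec10a) and none higher, and 3 of the 12 fold changes were positive. Gpnmb (log2 1.49 and -1.51) and Clec10a (1.34 and -1.66) were called in both comparisons, while the call of Trem2 between disease and healthy control was lost in 18 of 28 alternatives. Trem2 ran from 7.36 to 10.96 normalised reads in healthy control, 7.47 to 53.95 in disease and 4.41 to 7.65 in RYGB. It thus passed the filter mostly through its disease libraries, so the filter itself favoured its calls. Not all markers followed this order. Adgre1 had means of 378.3 in healthy control, 287.8 in disease and 363.7 in RYGB, and Lyz2 was still called higher in RYGB than in healthy control (0.56, limma adjusted p = 0.00699). The summed level of the 12 markers was 5568 to 7677 in healthy control, 8765 to 11124 in disease and 7517 to 10656 in RYGB. Lyz2 alone made up 65.6, 67.4 and 72.7% of these sums. Without Lyz2 the other 11 summed to 1840 to 2619 normalised reads in healthy control, 2686 to 3788 in disease and 1949 to 2829 in RYGB, so that every disease library exceeded every healthy control with or without Lyz2 and the RYGB libraries overlapped both groups either way.

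Fibroblast and capsule markers summed to 5308 to 8504 in healthy control, 6412 to 8174 in disease and 4288 to 5609 in RYGB. Of 7 tested, limma called 3 lower in RYGB than in disease (Col1a1, Pdgfra and Dcn), and Pdgfra and Dcn each lost that call in 7 of 28 alternatives. Against healthy control, Pdgfra (-0.75, limma adjusted p = 0.00581) and Dcn (-0.61, 0.00523) were called lower in RYGB in all 28, and Dpt was called lower too, a call lost in 10 of 28. Kidney cortex markers summed to 147102 to 202325 in healthy control, 104258 to 157534 in disease and 166187 to 217547 in RYGB, so disease and RYGB did not overlap. Of these 7 markers Umod was called, lower in disease than in healthy control and higher in RYGB than in disease, the latter lost in 9 of 28 alternatives. Blood cell markers summed to 58.9 to 335 in healthy control, 47.5 to 274 in disease and 446 to 1076 in RYGB. Most of these sums was Alas2, with means of 135.1, 147.8 and 629.2 normalised reads. Between RYGB and disease limma called Pf4 higher and did not call Alas2, while edgeR and DESeq2 called both. Against healthy control limma called both higher in RYGB, calls lost in 8 (Alas2) and 11 (Pf4) of 28 alternatives. The part of these cell types in the Car3 and Adipoq differences was not tested.

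**Figure D4:**
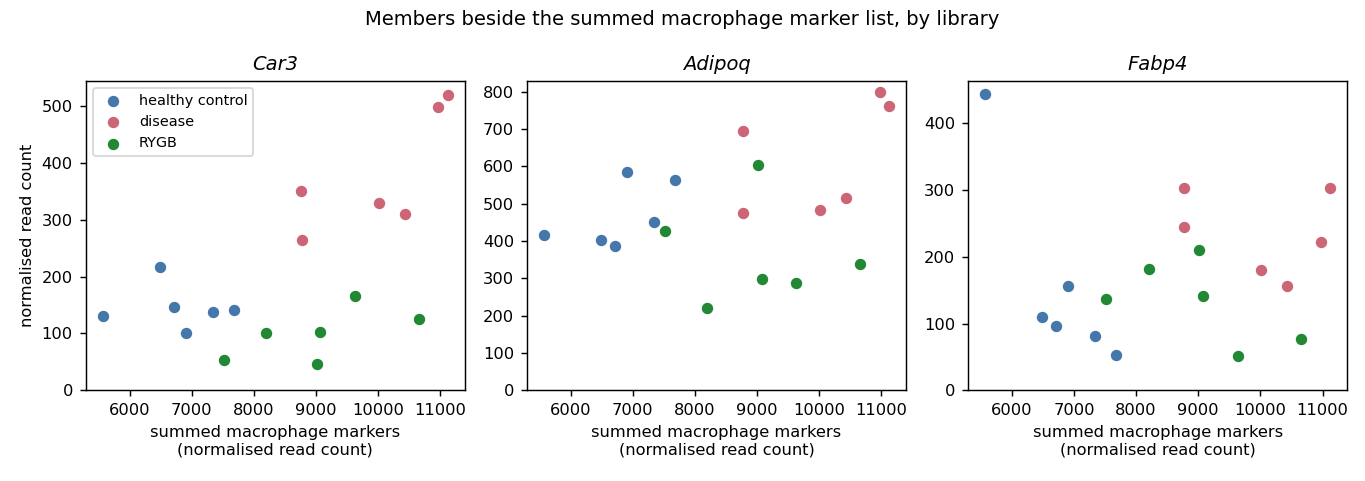
Normalised reads of Car3, Adipoq and Fabp4 in each of the 18 libraries against the summed normalised reads of 12 macrophage markers (both axes linear), coloured by group; Lyz2 makes up most of the sum. Disease libraries lie to the right of all healthy controls, and RYGB libraries overlap both groups in the sum. In the Car3 panel every RYGB library lies below every disease library.

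Fabp4 had 1 library far from its group. Its values were 52.95 (lowest), 102.8 (median) and 444.0 (highest) normalised reads in healthy control, the last in replicate 4. The disease libraries ran from 156.5 through 233.2 to 304.0 and the RYGB libraries from 50.93 through 138.8 to 210.2, with overlap among all groups. Disease against healthy control gave 0.90 ± 0.40 (SE; limma adjusted p = 0.393). Without healthy control replicate 4, the healthy control mean was 99.4 ± 38.2 (SD, n = 5) and the difference 1.28 (limma adjusted p = 0.0455). RYGB against disease gave -0.93 ± 0.40 (SE; limma adjusted p = 0.195), with 4 RYGB libraries below all disease libraries. Markers of capillary endothelium, whose cells are known to make FABP4, overlapped in their sums. These ran from 13450 to 18888 in healthy control, 11487 to 17507 in disease and 13341 to 15761 in RYGB. Of the 8 tested, 1 fold change was positive in disease and 1 in RYGB against healthy control, and 3 between RYGB and disease. Cdh5 was called lower in RYGB than in healthy control (-0.54, limma adjusted p = 0.0356), a call lost in 9 of 28 alternatives. Fabp5, another fatty acid carrier of the family, had means of 595.5 ± 254, 566.5 ± 128 and 376.3 ± 110 normalised reads (SD, n = 6).

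Adipsin was read at the edge of detection. Cfd had 172 reads in all, between 2 and 40 per library, with 5 values of at least 10. Its means were 6.82 ± 4.08 in healthy control, 12.9 ± 6.51 in disease and 6.79 ± 2.76 in RYGB (normalised reads, SD, n = 6), and the libraries overlapped. Of the 9 tested genes of the alternative complement pathway, in which factor D cleaves factor B, limma called 0 between disease and healthy control (3 at an unadjusted p below 0.05, edgeR and DESeq2 0). Between RYGB and healthy control factor B (Cfb), the substrate of factor D, was higher by 0.90 (limma adjusted p = 0.00368), and Cd55, a brake on the pathway, was lower at -0.85 (0.0254). The Cd55 call was lost without RYGB replicate 1, 4, 5 or 6.

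Pparg was read at few counts in all groups. Its values were 16.8 (lowest), 26.4 (median) and 43.4 (highest) normalised reads in healthy control, 13.4, 25.3 and 37.0 in disease, and 17.5, 22.8 and 39.6 in RYGB. The groups overlapped almost wholly. Disease against healthy control was -0.13 ± 0.28 on the log2 scale (SE; limma adjusted p = 0.915), RYGB against disease 0.015 ± 0.28 (0.981) and RYGB against healthy control -0.11 ± 0.28 (0.820), and left-out libraries turned the sign in each. Of 16 tested partner genes of PPARγ, limma called 0, 0 and 1 (Cebpa, higher) in the 3 comparisons, and 2, 3 and 4 had an unadjusted p below 0.05; edgeR called 0, 0 and 1 and DESeq2 1, 0 and 1.

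Likeness was measured as Pearson's r of each gene's deviations from its group means over the 18 libraries, as a description, since all genes of a library share its depth and preparation. Lepr was most like Abcc9 (0.94), Mlec (0.93) and Mob3b (0.92), and Adipor1 was most like Cdip1 (0.97) and Prkaca (0.96). Adipoq was most like Aif1l, Cpm and Asns (0.91 each), and Fabp4 was most like Fabp5, Nupr1 and Hpgd (0.86 each). Among genes with a symbol that is more than a clone or locus name, Car3 was most like Smtnl2 (0.76), Coq10a (0.75) and Twist2 (0.74), Adipor2 was most like Eya3 (0.89) and Pparg was most like Nptx2 (0.78). With such names included, the highest r was 0.85 for Car3 and 0.893 for Adipor2. The 21 pairs of the 7 tested genes had r from -0.52 to 0.57.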

How the data were processed

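RNA-seq of rat kidney cortex was prepared, per the labels' protocols, with a stranded mRNA library kit. Each deposited value is a signal per gene, for which the authors divided read counts by a library's size factor (0.4014 to 2.022). Per the submitters' processing notes, FastQC 0.11.2, MultiQC 0.9, HTSeq 0.6.1p1, DESeq2 and build Rnor 5.0 were used; no aligner is named there. Of 18423 rows, 3 name no gene and were left out: reads outside genes (27.6 to 43.2% of a library's counted reads), reads not placed uniquely (13.5 to 18.1%) and ambiguous reads (0.0695 to 0.114%). Whole reads were recovered for 100% of values, within 0.01 reads, and were used for the count alternatives and read numbers.

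Values were taken as log2(value + 1) and fitted with limma 3.58.1 in R 4.3.3, with its trend of variance on the mean, in 1 fit of 3 group means over 18 libraries (15 residual degrees of freedom), with p-values adjusted by Benjamini-Hochberg within a comparison. A fold change on this scale understates the change of low genes. Libraries of a group differed from each other by more than sampling noise (chi-square per degree of freedom of 22.5 or more). Intervals are 95% intervals from the fit. Alternatives were other filters, pseudocounts and scalings, edgeR 4.0.16, DESeq2 1.42.0, compared groups alone, each library left out and a replicate block. Replicate numbers were not shown to pair libraries. Deviations of same-numbered healthy control and disease libraries correlated at 0.131 to 0.325 over genes (6 of 6 pairs positive). A library correlated best with its own number in 2 of 6 of these pairs. Same-numbered disease and RYGB libraries correlated at -0.557 to 0.309, best with their own number in 1 of 6. Between healthy control and RYGB the range was -0.310 to 0.0141, with 0 of 6. Every gene of the 10 is named; of each list, up to 3 called genes by adjusted p, or the most abundant ones, were eligible and a part of them is named; the closest genes are those of highest r, passing over clone and locus names. The genes and lists were chosen with earlier results of these data known, and the lists hold 215 other symbols, of which 174 are in the table. Some results of the lists are not reported here.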

Additional observations from a re-analysis of the deposited data

Results flagged for a closer look

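A library counts here when its gap to the nearest other library of its group exceeded 0.625 of the group's range. For normally distributed values chance does this for about 1 in 20 groups. That rate does not hold for Lep and Plin1, whose flagged libraries held 1 or 2 reads. In 30 groups of the 10 genes 5 did so. Healthy control replicate 4 held 444.0 normalised reads of Fabp4 against 156.7 at most in the other 5, and 2.45 of Lep against 0.764, which is 1 read. RYGB replicate 1 held 1.10 of Lep, also 1 read, with 0 in the others. RYGB replicate 2 held 3.00 of Plin1 (2 reads; next 0.762), and RYGB replicate 6 held 11.98 of Cfd (next 6.86).

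Among the called genes of the lists, 10 of 78 groups did so. In healthy control replicate 4 these were Clec10a at 98.1, Plin5 at 66.2, Rarres2 at 2252 and Rbp4 at 1673, the highest of their group, and Col1a1 at 196.2 and Dpt at 451.4, the lowest. Healthy control replicate 1 was the highest for Cd55 at 1168, Lpl at 4152 and Trem2 at 10.96. RYGB replicate 2 was the highest for Plin5 at 91.6.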

How the results depend on the processing

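Car3 kept its call in both comparisons with disease under every alternative run (adjusted p 3.84e-05 to 0.0262 for disease against healthy control, limma and count tests), the replicate block included (0.0146). With the replicate block the number of genes called among the 10 was 1, 2 and 0, as without it, and over all genes 158, 408 and 496 against 225, 552 and 621. DESeq2 called 410, 1098 and 1602 genes, and edgeR 224, 629 and 846. Fitted alone, disease and RYGB gave 1 called gene instead of 2, and DESeq2 gave 1 instead of 0 for RYGB against healthy control. Leaving out 1 library gave 1 to 2, 1 to 2 and 0 to 1 calls in the 3 comparisons.

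Signs turned where the difference was near 0. Adipor2 in RYGB against disease was -0.042 with CPM values, -0.012 with quantile normalization, -0.00606 with DESeq2 and -0.044 to 0.048 with 1 library left out. Pparg was -0.021 with CPM values in that comparison and -0.15 to 0.14 with 1 left out, -0.25 to 0.035 in disease against healthy control and -0.25 to 0.030 in RYGB against healthy control. Lepr was -0.29 to 0.029 in RYGB against disease. Fabp4 in RYGB against healthy control was 0.0045 with quantile normalization and -0.26 to 0.35 with 1 left out. The cause was not tested. Pparg had no value with a minimum of 50. Depth limits Lep, Plin1 and Cfd, of which 11, 4 and 172 reads were seen.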

Other observations

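Among other adipokines, RYGB stood above healthy control for retinol-binding protein 4, the plasma carrier of retinol, and for chemerin. Rbp4 rose by 2.51 ± 0.42 (SE, log2; limma adjusted p = 0.00243), with means of 599.9 ± 539, 1374 ± 663 and 2983 ± 1311 normalised reads in healthy control, disease and RYGB (SD, n = 6). Rarres2, which encodes chemerin, rose by 1.03 ± 0.21 (SE; limma adjusted p = 0.0115), with means of 1270.5 ± 503, 1944 ± 665 and 2465 ± 271 normalised reads. Both calls held in all 28 alternatives. Of the 10 tested genes of that list, limma called 0 in each of the other comparisons, where 5 (disease against healthy control) and 2 (RYGB against disease) had an unadjusted p below 0.05 and edgeR and DESeq2 called 0.

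Of the 3 tested perilipins other than perilipin 1, Plin3 was called higher in disease than in healthy control (0.51, limma adjusted p = 0.0249), and the call was lost in 12 of 29 alternatives. Plin5 was called higher in RYGB than in healthy control (1.27, limma adjusted p = 0.0484), and the call was lost in 16 of 28.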
